A study of Homo sapiens with 6 samples.

Results

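A set of 10 transcription factors of myeloid fate, found by their symbols, was followed across 6 RNA-seq libraries of cells labelled Daudi, a line established from a Burkitt lymphoma, which is a B-cell tumour. All 10 symbols matched a single row each among the 58273 rows of the table: CEBPA, CEBPB, CEBPD, CEBPE, SPI1, GFI1, RUNX1, IRF8, KLF4 and MYB. The labels give 3 libraries as wild type and 3 as shENO1, in which a short hairpin targets ENO1 (enolase 1, a glycolytic enzyme), and total RNA was the starting material of all 6. The promoter of the hairpin and the number of clones are not stated in the labels. No library is labelled as a control hairpin, so hairpin delivery and loss of ENO1 cannot be told apart. The labels do not say that the replicates were separate cultures, so p-values measure the spread between these libraries, which may be technical.

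Myeloid cells arise from blood progenitors through the combined action of several transcription factors. PU.1, encoded by SPI1, and the C/EBP proteins open and activate myeloid genes. C/EBP alpha starts the granulocyte and monocyte programme and slows division, C/EBP epsilon serves the late granulocyte stage, and C/EBP beta and delta answer to cytokines and inflammation. RUNX1 and MYB act in progenitors, IRF8 and KLF4 favour monocytes, and GFI1 represses genes to favour granulocytes. PU.1, IRF8, MYB, RUNX1 and GFI1 also have roles in lymphocyte development, whereas C/EBP alpha is normally kept low in B cells.

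Values were FPKM, fragments scaled by transcript length and library size, so levels can be set side by side between genes. They summed to between 958697 and 1053890 per library, and the absolute depth is unknown. ENO1 itself ranged over 927 to 1747 FPKM without the hairpin and over 212 to 368 FPKM with it, and the groups did not overlap. The marker genes went against the label of the cells. Of 10 B-cell markers, CD79B, CR2, BLK and FCRLA were listed at 0 in all 6 libraries, and MS4A1, which encodes CD20, reached at most 0.101 FPKM. CD79A, a signalling chain of the B-cell receptor, lay between 0.604 and 1.66 FPKM. CD37, a tetraspanin found on several leukocytes, held most of the list, with 69.9 to 111.5 FPKM. The B-cell markers summed to 85.0 to 120 FPKM without the hairpin and to 77.5 to 98.3 FPKM with it.

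The C/EBP genes were the first group examined. CEBPA (ENSG00000245848.2, chromosome 19, 33299934 to 33302564, minus strand, coordinates of GENCODE release 29 on GRCh38) is a gene of 1 exon. CEBPA stood at 151, 222 and 164 FPKM in wild type replicates 1 to 3 and at 150, 206 and 169 FPKM in shENO1 replicates 1 to 3. The groups overlapped, and in both of them replicate 2 was the highest and replicate 1 the lowest. With a mean of 177 FPKM over the 6 libraries, CEBPA was the most abundant of the 10 factors, and only 394 of the 11904 protein coding genes tested, or 3.31%, had a higher mean.

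CEBPB (ENSG00000172216.5, chromosome 20, 50190734 to 50192689, plus strand) was at 55.3, 71.3 and 75.3 FPKM in wild type and at 48.2, 55.5 and 71.5 FPKM in shENO1. The groups overlapped, although each shENO1 library lay below the wild type library of the same number. CEBPE (ENSG00000092067.5, chromosome 14, 23117304 to 23119616, minus strand) was far lower, at 6.89, 8.87 and 12.7 FPKM in wild type and at 8.13, 7.70 and 11.9 FPKM in shENO1. Its highest value in each group was that of replicate 3. CEBPD (ENSG00000221869.4, chromosome 8, 47736909 to 47739086, minus strand) was the lowest factor, at 0.801, 0.952 and 1.04 FPKM in wild type and at 1.03, 1.30 and 0.994 FPKM in shENO1, with overlapping groups.

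Within the C/EBP family each gene held a share whose ranges overlapped between the groups. Of the summed FPKM of CEBPA, CEBPB, CEBPD, CEBPE and the related CEBPG and DDIT3, CEBPA held 54.9% to 65.4% in every library and CEBPB 17.6% to 25.2%. CEBPG, a partner without an activation domain, held 9.68% to 15.1%, and DDIT3, the stress-induced inhibitory member also called CHOP, 2.88% to 7.32%. The share was 2.44% to 4.26% for CEBPE and at most 0.411% for CEBPD. The ratio of CEBPA to CEBPE was 21.9, 25.1 and 12.9 in wild type and 18.5, 26.8 and 14.2 in shENO1, thus lowest in replicate 3 of both groups.

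SPI1 (ENSG00000066336.11, chromosome 11, 47354860 to 47378576, minus strand) was at 57.9, 68.0 and 70.4 FPKM in wild type and at 65.2, 60.6 and 68.3 FPKM in shENO1. These overlapping values spanned little, with a coefficient of variation of 7.50% over the 6 libraries. IRF8 (ENSG00000140968.10, chromosome 16, 85898803 to 85922609, plus strand), a partner of PU.1 at composite DNA elements, was at 41.2, 56.3 and 53.3 FPKM in wild type and at 41.6, 61.3 and 54.6 FPKM in shENO1. Replicate 1 was the lowest library for IRF8 in both groups, and the groups overlapped. SPIB, the PU.1 relative of B cells, reached at most 0.714 FPKM in any library, and IRF4, the IRF8 relative of activated B cells and plasma cells, at most 0.787 FPKM.

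GFI1 (ENSG00000162676.11, chromosome 1, 92474762 to 92486876, minus strand) was at 126, 102 and 95.5 FPKM in wild type and at 129, 128 and 105 FPKM in shENO1. Its groups overlapped, and replicate 3 was the lowest in each. The ratio of GFI1 to IRF8, factors that pull towards granulocytes and monocytes, was 3.05, 1.81 and 1.79 in wild type and 3.10, 2.09 and 1.92 in shENO1. The paralogue GFI1B, a factor of red cells and platelets, was listed at no more than 0.0442 FPKM.

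Windows before annotated starts of the factors were also searched for the letters of binding motifs of abundant factors of the set. RefSeq windows of 250 bases before an annotated start (build GRCh38.p14) were at hand for 8 of the 10 genes, 12 windows in all, with CEBPD and SPI1 unmatched. On either strand, the C/EBP letters TTGCNNAA were found in 1 of these 12 windows, against 9.05% of 35116 windows of all genes, the RUNX letters TGTGGT in 2 against 11.0%, and the PU.1 letters GAGGAAGT in 0 against 2.17%. The C/EBP match lay in a GFI1 window at chr1:92486100-92486349 on the minus strand, inside the gene and over 0 annotated exons, beginning 142 bases before the start. A RUNX match in the same window began 47 bases before the start, and the other RUNX match lay in a window before a RefSeq start of IRF8 that is itself inside the annotated gene, over 2 annotated exons. The window is shown 5′ to 3′ because it was the only one of the 12 with letters of both kinds, which are in capitals (C/EBP first, then RUNX). The other GFI1 windows held no match to these motifs. A match is a description of letters, and binding was not measured.
GFI1 window: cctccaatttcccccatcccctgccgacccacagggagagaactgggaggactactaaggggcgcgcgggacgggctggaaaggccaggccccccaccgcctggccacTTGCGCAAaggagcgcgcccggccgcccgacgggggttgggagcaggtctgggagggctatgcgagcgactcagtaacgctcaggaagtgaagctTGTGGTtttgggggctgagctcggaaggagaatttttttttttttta

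RUNX1 (ENSG00000159216.18, chromosome 21, 34787801 to 36004667, minus strand) was at 107, 101 and 82.7 FPKM in wild type and at 94.8, 102 and 86.7 FPKM in shENO1. Again the groups overlapped and replicate 3 was the lowest library of each. Its DNA-binding partner CBFB averaged 58.1 ± 19.8 FPKM in the wild type group and 60.8 ± 13.2 FPKM after knockdown (SD, n = 3 each, as in all later means), and the relatives RUNX2 and RUNX3 were at lower levels than RUNX1 in every library.

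MYB (ENSG00000118513.18, chromosome 6, 135181315 to 135219173, plus strand) varied least. It was at 156, 150 and 152 FPKM in wild type and at 157, 157 and 160 FPKM in shENO1, a coefficient of variation of 2.30% over the 6 libraries. MYB was also the 1 factor of the 10 whose groups did not overlap, with every shENO1 library above every wild type library as deposited. Over all 17870 genes tested, 2.71% did not overlap with shENO1 higher and 3.28% with shENO1 lower, beside 1 and 0 of the 10 factors. The gap was narrow, and the groups of MYB overlapped once the libraries were scaled to the same FPKM sum, by median ratios or by quantiles. KLF4 (ENSG00000136826.14, chromosome 9, 107484852 to 107490482, minus strand) was low and even, at 3.35, 3.32 and 3.43 FPKM in wild type and at 3.62, 3.0 and 3.49 FPKM in shENO1.

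**Figure D1:**
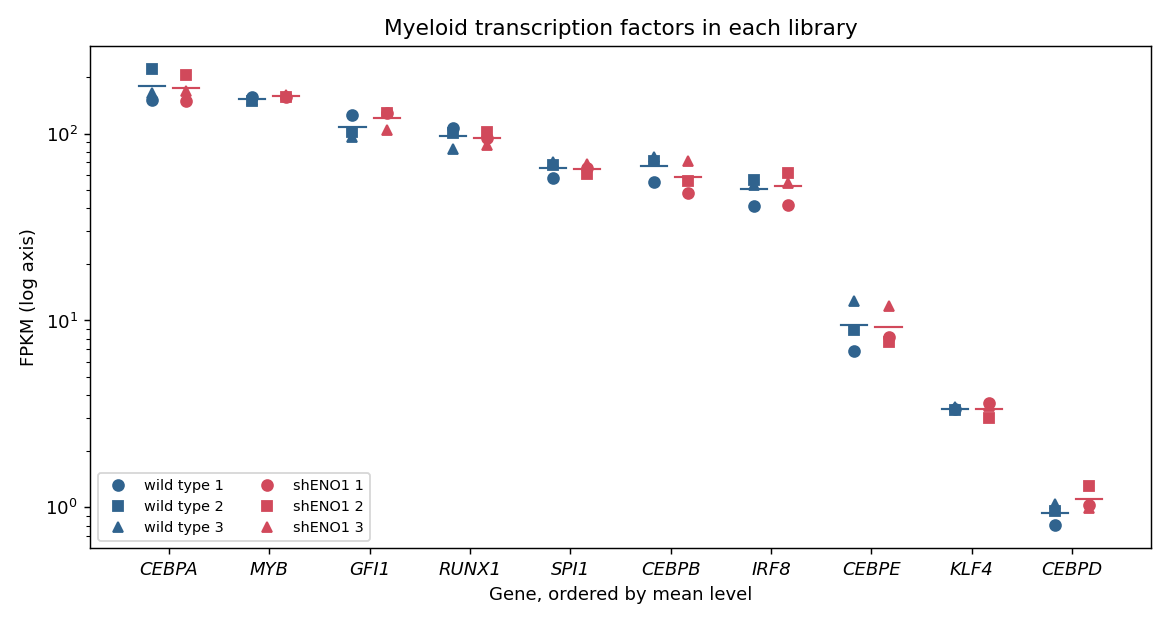
FPKM (log axis) of the 10 transcription factors in each library, ordered by mean level. Wild type libraries are blue and shENO1 libraries red, the symbol gives the replicate number and the line the group mean (n = 3). CEBPA, MYB and GFI1 lead, CEBPE, KLF4 and CEBPD trail, and the groups overlap for every gene but MYB, whose groups overlap too under each of the 3 other scalings.

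The order of the levels fell into steps. CEBPA (177 ± 30.2 FPKM, SD over all 6 libraries) and MYB (155 ± 3.57 FPKM) had overlapping ranges, and CEBPA was above MYB in 4 of 6 libraries. GFI1 (114 ± 15.1 FPKM) and RUNX1 (95.7 ± 9.45 FPKM) overlapped in range too, although GFI1 was the higher in 6 of 6 libraries. SPI1 (65.1 ± 4.88 FPKM) and CEBPB (62.9 ± 11.2 FPKM) could not be ordered, with SPI1 above in 3 of 6 libraries, and CEBPB was above IRF8 (51.4 ± 8.20 FPKM) in 5 of 6. Below them CEBPE (9.36 ± 2.37 FPKM), KLF4 (3.37 ± 0.210 FPKM) and CEBPD (1.02 ± 0.162 FPKM) were separated from each other and from IRF8 without overlap. Of the 11904 protein coding genes tested, 3.88% had a higher mean than MYB, 5.94% than GFI1, 12.8% than SPI1, 67.4% than CEBPE and 94.1% than CEBPD.

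Most genes on a list of myeloid targets and markers, called myeloid targets below, were present. Whether the factors drive these genes here was not tested. Of 24 myeloid target and marker genes, 17 were at 1 FPKM or more in every library and 11 at 10 FPKM or more, and together they summed to 913 to 1438 FPKM without the hairpin and to 1010 to 1480 FPKM with it. Cathepsin G (CTSG), a granule protease, averaged 401 ± 152 FPKM without the hairpin and 404 ± 117 FPKM with it, lysozyme (LYZ) at 266 ± 170 and 296 ± 162 FPKM, and azurocidin (AZU1) at 148 ± 47.8 and 138 ± 44.6 FPKM. The proteases ELANE and PRTN3, the G-CSF receptor CSF3R, the surface proteins CD33, CLEC12A and MS4A3, and S100A9, CD68 and AIF1 also had means over 10 FPKM in both groups, and S100A8, FCGR1A, ITGAM, CAMP and CSF1R lay between 1.11 and 31.5 FPKM. The exceptions included MPO, the myeloperoxidase of the same granules, at no more than 0.161 FPKM, as well as CD14, TREM1 and LTF, each at no more than 0.375 FPKM. CD163 and CSF2RA were listed at 0 in all 6 libraries. CSF2RA lies in a region that X and Y share, where reads can match both copies, so nothing is read from its 0.

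Regulators of blood progenitors were present beside the myeloid factors. MEIS1 averaged 105 ± 42.8 FPKM without the hairpin and 111 ± 39.9 FPKM with it, HOXA10 at 64.6 ± 8.57 and 65.3 ± 8.03 FPKM, LMO2 at 60.3 ± 5.94 and 63.5 ± 6.94 FPKM, HOXA9 at 42.6 ± 10.7 and 45.9 ± 13.7 FPKM, and the receptor FLT3 at 6.21 ± 2.0 and 5.78 ± 2.06 FPKM. CD34 and TAL1 reached at most 0.0266 FPKM. Among 14 B-lineage transcription factors, those shared with other blood cells led, namely IKZF1 (138 ± 18.8 and 137 ± 20.5 FPKM), XBP1 (85.8 ± 17.6 and 83.2 ± 18.1 FPKM) and TCF3 (65.9 ± 10.6 and 64.6 ± 3.41 FPKM). Next came BCL6 (17.9 ± 12.2 and 20.4 ± 10.6 FPKM), FOXO1 (10.4 ± 2.07 and 11.55 ± 2.59 FPKM) and MEF2C (7.03 ± 1.19 and 7.31 ± 2.25 FPKM). PAX5, which fixes B-cell identity, was at 3.77 ± 0.932 and 2.86 ± 0.543 FPKM, its partner EBF1 at 3.62 ± 0.346 and 4.33 ± 0.823 FPKM, and the B-cell coactivator POU2AF1 was listed at 0 in all 6 libraries. CEBPA was above PAX5 in every library. Markers of T cells summed to no more than 1.21 FPKM in a library, led by CD2, with CD7, CD28, CD3G and TRAT1 at 0. Red cell and platelet markers summed to no more than 4.82 FPKM, led by GATA2 and KLF1, with PF4 at 0 and HBB seen in shENO1 replicate 1 alone, at 3.41 FPKM. Whether other cells contributed to the levels of the myeloid factors was not tested.

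**Figure D2:**
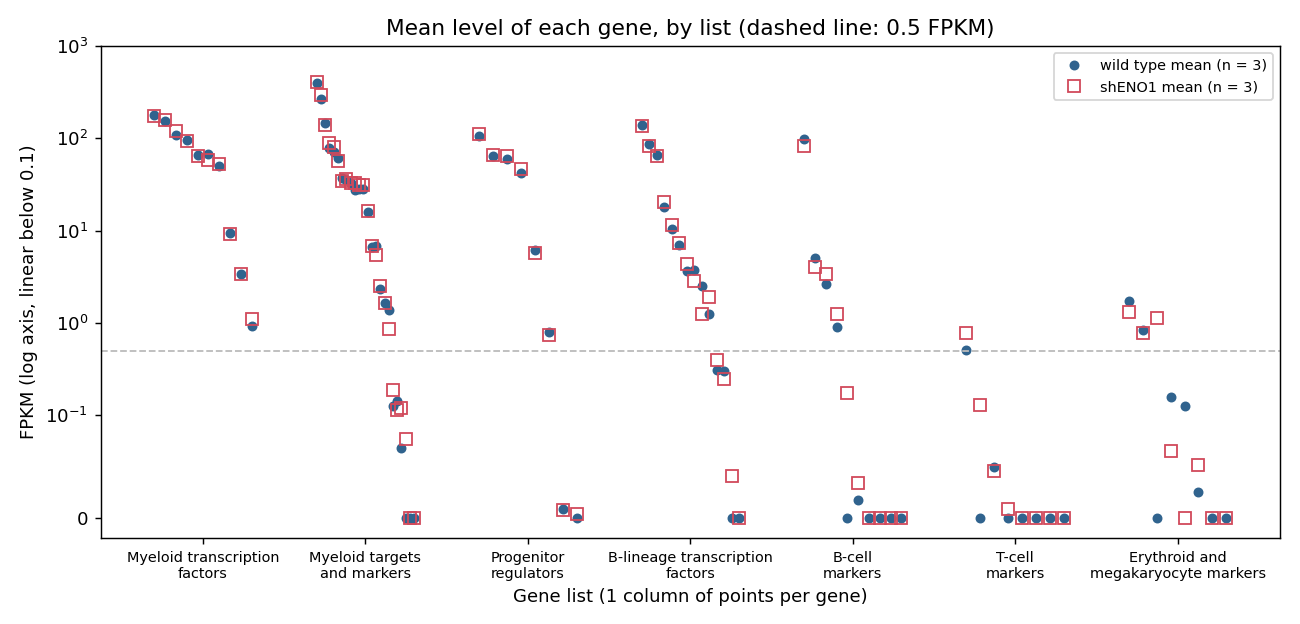
Mean FPKM of each gene in wild type (filled circles) and shENO1 (open squares), n = 3 each, by gene list, on a log axis that is linear below 0.1 FPKM. 7 of the 10 myeloid transcription factors and 11 of the 24 myeloid targets stand at 10 FPKM or more in every library, against 1 of the 10 B-cell markers (CD37) and 0 of the T-cell, red cell and platelet markers. So do 3 of the 14 B-lineage transcription factors and 4 of the 8 progenitor regulators.

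The comparison of the groups asked whether knockdown of ENO1 went with a change in these regulators. For each gene the difference is shENO1 minus wild type in log2(FPKM + 0.5), fitted with limma over all 17870 genes. All 10 factors passed the filter of 0.5 FPKM in at least 3 libraries, KLF4 and CEBPD included. None of the 10 was called at an adjusted p under 0.05 with a change over 2-fold, where 0.0% of all genes were called, and 0 of 10 had an unadjusted p under 0.05, against 353 genes, or 1.98%. The median log2 fold change of the 10 was -0.0087 and their median absolute value 0.04, beside -0.0036 and 0.12 over all genes tested. The test did not call ENO1 itself, which differed by -2.14 in log2 (SE 0.29, limma adjusted p = 0.5176), so a lack of calls does not show a lack of change. Blocking on the replicate number, limma did call ENO1 (adjusted p = 0.003738). In that fit 1 of the 10, CEBPB, had an unadjusted p under 0.05, against 7.55% of all genes, and 0 passed once adjusted.

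CEBPB, GFI1 and CEBPD had the largest differences, in an order that changed with the pseudocount and the scaling. CEBPB averaged 67.3 ± 10.6 FPKM without the hairpin and 58.4 ± 11.9 FPKM with it, a log2 difference of -0.21 (SE 0.19, limma adjusted p = 0.9999). The values within replicate numbers 1 to 3 were -0.19, -0.36 and -0.07. GFI1 averaged 108 ± 15.9 and 121 ± 13.8 FPKM, which differ by 0.17 in log2 (SE 0.15), with values of 0.04, 0.33 and 0.13 within the numbers, of which that of number 1 turned to -0.01 under quantile normalization. CEBPD, at 0.932 ± 0.122 and 1.11 ± 0.166 FPKM, differed by 0.17 in log2 (SE 0.24) and went the other way in number 3. The difference in mean FPKM was smaller than the SD of each group for CEBPB and GFI1, but larger than both SDs for CEBPD. With the replicate number as a block the SE was 0.07 for CEBPB (unadjusted p = 0.03538, limma adjusted p = 0.6403), 0.07 for GFI1 (adjusted p = 0.6594) and 0.23 for CEBPD (adjusted p = 0.8871). The adjusted p-values of all 10 factors without the block were 0.9999.

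The other 7 factors differed less. The log2 fold change was 0.06 for IRF8 (SE 0.19, with number 1 turning below 0 under sum and quantile scaling), 0.05 for MYB (SE 0.10), -0.03 for RUNX1 (SE 0.14), -0.02 for CEBPA (SE 0.19), -0.02 for CEBPE (SE 0.27), -0.01 for SPI1 (SE 0.13) and -0.0038 for KLF4 (SE 0.18). CEBPA, CEBPE, SPI1, RUNX1 and KLF4 came out above 0 when each library was scaled to the same FPKM sum, and CEBPE and KLF4 also under quantile normalization, so no direction is given for them. For MYB an exact two-sided permutation test gave p = 0.1, and 3 against 3 libraries can give none lower.

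The intervals say how large a difference could have gone unseen. The 95% intervals from limma lay within 2-fold either way for all 10 factors and within 1.5-fold for 7. They ran from 0.883 to 1.21-fold for MYB, 0.807 to 1.22-fold for SPI1, 0.782 to 1.23-fold for RUNX1, 0.725 to 1.33-fold for CEBPA, 0.740 to 1.34-fold for KLF4, 0.763 to 1.42-fold for IRF8 and 0.879 to 1.44-fold for GFI1. The wider ones were 0.635 to 1.18-fold for CEBPB, 0.639 to 1.52-fold for CEBPE and 0.757 to 1.66-fold for CEBPD. These are folds of FPKM + 0.5, which understates changes of CEBPD and KLF4.

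**Figure D3:**
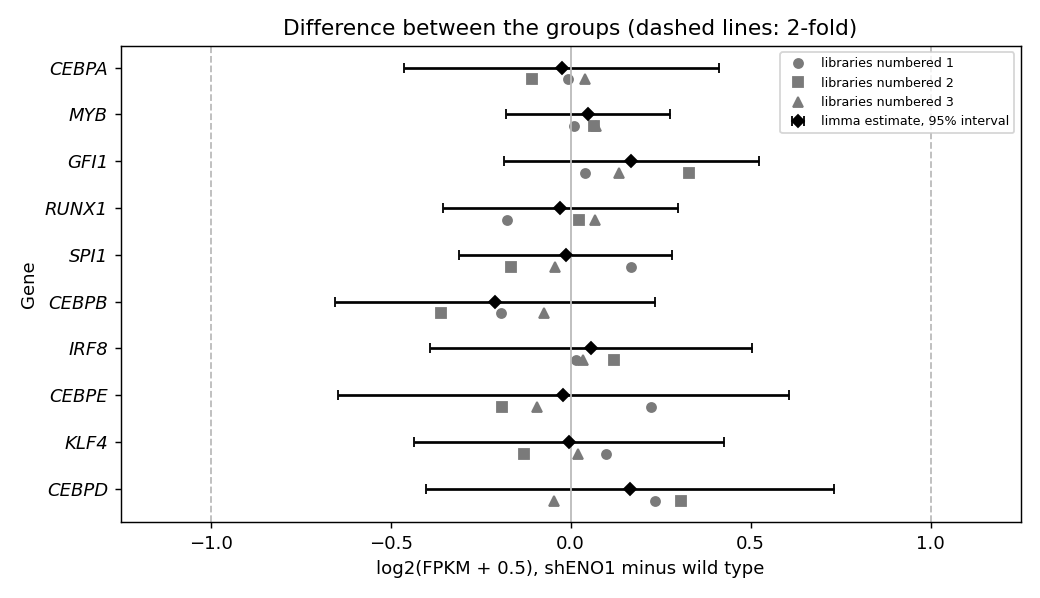
Difference in log2(FPKM + 0.5) between shENO1 and wild type for each factor. Black diamonds are limma estimates with 95% intervals, grey symbols the differences between libraries of the same replicate number, and dashed lines mark 2-fold. Every interval holds 0, and CEBPB at -0.21 and GFI1 at 0.17 lie farthest out with CEBPD.

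Related genes gave no call either. Of 22 relatives and partners of the factors, 19 were tested, 10 with a log2 fold change above 0 and 9 below, with a median of 0.01. The smallest p-values among them belonged to the coactivator EP300 (48.3 ± 2.74 and then 42.0 ± 3.40 FPKM, wild type first), RUNX3 (41.3 ± 5.20 and 34.5 ± 6.79 FPKM) and MYBL2, the MYB relative of dividing cells (67.6 ± 23.8 and 78.1 ± 11.1 FPKM). FLI1 (73.6 ± 9.13 and 78.7 ± 12.6 FPKM) and KDM1A, the demethylase that GFI1 recruits (64.6 ± 5.89 and 62.0 ± 4.56 FPKM), were the other abundant ones. Of the myeloid targets 18 were tested, 11 above 0 and 7 below, with a median of 0.06, and CD68 (27.5 ± 5.03 and 32.4 ± 2.82 FPKM), ITGAM (6.79 ± 1.26 and 5.45 ± 1.18 FPKM) and CYBB (1.37 ± 0.680 and 0.859 ± 0.552 FPKM) had the smallest p-values. Of the B-lineage factors 10 were tested, 5 on each side, with a median of 0.0013. PRDM1, a transcriptional repressor active in plasma cells and some myeloid cells, was at 2.54 ± 1.17 and 1.26 ± 0.0597 FPKM without overlap. In each of these lists 0 genes passed the adjusted test and 0 had an unadjusted p under 0.05 in limma, and the same held for the 6 progenitor regulators, 4 B-cell markers, 2 red cell markers and 1 T-cell marker tested, with medians of 0.05, 0.03, -0.18 and 0.28. With the replicate block, 0 genes of these lists passed the adjusted test, and the unadjusted p was under 0.05 for 2 relatives, RUNX3 and EP300, with shENO1 lower, and for 3 myeloid targets, LYZ, CD68 and MS4A3, with shENO1 higher. It was also under 0.05 for PRDM1 and CD37, with shENO1 lower, and for 0 of the other genes tested in these lists, beside the 7.55% of all genes given above. The B-cell marker CD22 did not overlap between the groups either, at 5.01 ± 0.0829 and 4.0 ± 0.710 FPKM. Over all genes tested, 3.28% were likewise lower in shENO1 without overlap.

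Most of the variation of the factors followed the replicate number rather than the group. Of the sum of squares of log2(FPKM + 0.5) over the 6 libraries, 97.6% lay between replicate numbers for CEBPA, 97.1% for IRF8, 91.5% for CEBPE, 82.7% for RUNX1, 74.7% for CEBPB, 65.2% for GFI1, 58.5% for KLF4 and 51.8% for SPI1. The share between groups was 0.332% for CEBPA, 0.105% for CEBPE and 0.0662% for KLF4. The remainder, with as many degrees of freedom as the number, held 47.7% for SPI1 and 41.4% for KLF4, so the number stands out little for them. MYB and CEBPD were the exceptions, with 63.7% and 36.1% between groups and 15.2% and 33.5% between numbers, the first on a total span of 0.09 log2 units. Over all genes tested the medians were 69.3% between numbers and 6.31% between groups, so the 8 factors with over 50% between numbers resemble the rest of the table.

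**Figure D4:**
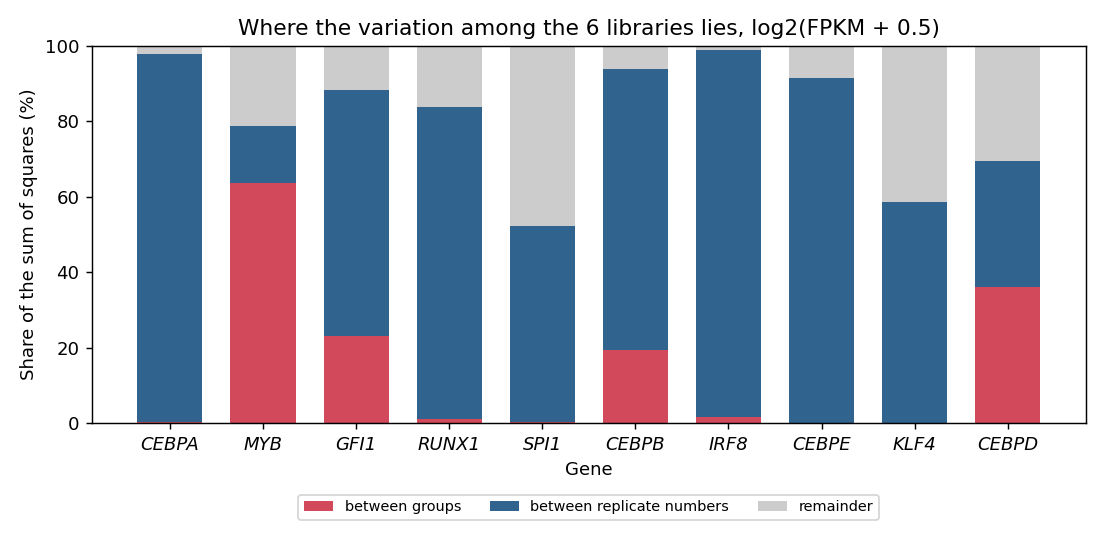
Share (%) of the sum of squares of log2(FPKM + 0.5) over the 6 libraries that lies between the groups (red), between replicate numbers (blue) and in the remainder (grey), for each factor. Blue holds over 50% for 8 of the 10 factors, and red leads for MYB, whose libraries span 0.09 log2 units in all. Blue and grey each have more degrees of freedom than red.

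The replicate numbers set 2 patterns among the factors. CEBPA and IRF8 were lowest in number 1 and highest in number 2 in both groups, as were the granule proteins CTSG (236, 536 and 431 FPKM in wild type, then 274, 500 and 436 FPKM after knockdown) and AZU1 (117, 203 and 124 FPKM, then 102, 188 and 124 FPKM). The proteases PRTN3 and ELANE were also lowest in number 1. PRTN3 was highest in number 3 in both groups (12.9, 34.85 and 36.49 FPKM, then 17.06, 34.07 and 42.85 FPKM). ELANE was highest in number 2 in wild type (14.2, 48.36 and 36.83 FPKM) but in number 3 in shENO1 (14.75, 39.07 and 43.83 FPKM). Number 3 minus the mean of numbers 1 and 2 came to 0.67 log2 units in wild type and 0.56 in shENO1 for CEBPE, and to 0.26 and 0.46 for CEBPB. The same difference was -0.33 and -0.18 for RUNX1, and -0.24 and -0.29 for GFI1. LYZ (154, 182 and 461 FPKM, then 186, 220 and 482 FPKM) and S100A8 (7.36, 8.77 and 31.5 FPKM, then 8.10, 13.1 and 27.5 FPKM) were highest in number 3, while AIF1 was at 104, 99.6 and 7.40 FPKM in wild type and at 125, 109 and 6.44 FPKM in shENO1. These patterns were read from the values, the labels name no batch, and what the numbers stand for was not tested. No factor spanned more than 0.84 log2 units over the 6 libraries, against a median of 0.74 over all genes tested and 0.45 over the 10.

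Annotated genes that overlap the factors could share their reads, since the sources used here do not say whether strand was counted. MYB-AS1, which overlaps MYB on the opposite strand by 913 bases, was at 15.3, 14.5 and 9.21 FPKM in wild type and at 13.1, 19.8 and 12.5 FPKM in shENO1, far below MYB. AC008738.5, opposite to CEBPA with 662 bases of overlap, was at 5.17 to 12.2 FPKM, and AC008738.3, with 1235 bases, moved from 0.0002 to 9.39 FPKM between libraries, both well below CEBPA. CEBPB-AS1 reached 0.254 FPKM. SPIDR, which lies within 5000 bases of the far lower CEBPD on the opposite strand without overlap, was at 38.2 to 47.6 FPKM. The overlapping or neighbouring genes within 5000 bases of RUNX1 reached at most 0.599 FPKM.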

How the data were processed

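RNA-seq libraries of wild type (n = 3) and shENO1 (n = 3) cells were compared. The authors deposited FPKM values made with Cuffnorm, and the submitters' processing notes list STAR and Cufflinks beside it, without versions, and hg38 (GRCh38) as build. The sources used here do not give how Cuffnorm scaled the libraries. FPKM keeps no absolute depth, so no counting intervals are given.

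The 10 factors were matched by symbol. The members and gene lists were chosen with earlier results of these data known. Coordinates came from GENCODE release 29, which holds 58010 of the 58273 identifiers. Genes with at least 0.5 FPKM in at least 3 libraries (17870) were tested on log2(FPKM + 0.5), without covariates, by two-sided moderated tests of limma 3.58.1 (R 4.3.3) with a variance trend on mean level. Adjustment followed Benjamini and Hochberg over every gene tested. Calls needed an adjusted p under 0.05 and a log2 fold change over 1, the thresholds of the study, whose count-based test needs reads. The fit was tested on simulated data.

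Libraries with the same number deviated together from their group means (correlations of 0.312, 0.176 and 0.491 over genes, against -0.39 to 0.144 for other pairs). The pairing comes from these values, not from the labels, and a second fit took the number as a block.

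All members are named. Of each other list, up to 3 genes with the smallest p and up to 3 of the most abundant are named, with every myeloid target at 1 FPKM or more in all libraries, and other genes were chosen after their values were seen. Genes closest in profile were to be named for members spanning over 1 log2 unit, and 0 did. Other pseudocounts, filters, scalings, designs and library sets were tried as alternatives. Promoter windows came from RefSeq. Some items are not reported here.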

Additional observations from a re-analysis of the deposited data

How the results depend on the processing

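No factor was called under any of the 17 alternatives, and the count of members called was 0 throughout. Over all genes the count of calls, 0 as reported, was 1 (ENO1) with the replicate block, 4 with library weights and 2 with both libraries numbered 3 left out, and 0 in each fit without a single library. The replicate block changed no call on the factors. CEBPB, CEBPD, GFI1 and MYB kept the sign of their difference in all 17 alternatives, but leaving out a single library moved it over -0.3639 to -0.082 for CEBPB, 0.0869 to 0.2839 for GFI1, 0.0823 to 0.2205 for CEBPD and 0.0358 to 0.0639 for MYB. CEBPD was at 0.2248 with a pseudocount of 0.1, above the size of the CEBPB difference (-0.2106). With FPKM sums made equal, the log2 fold change was 0.0174 for CEBPA, 0.0204 for CEBPE, 0.0285 for SPI1, 0.0137 for RUNX1 and 0.0328 for KLF4, against values below 0 as reported. Quantile normalization gave 0.0020 for CEBPE and 0.0192 for KLF4, and leaving out both libraries numbered 3 gave 0.0168 for CEBPE and 0.0010 for SPI1. Over the fits that left out a single library, values ran from -0.15 to 0.14 for CEBPA, -0.22 to 0.20 for CEBPE, -0.0985 to 0.0411 for SPI1, -0.14 to 0.0483 for RUNX1, -0.0786 to 0.21 for IRF8 and -0.0506 to 0.0673 for KLF4. The cause of these sign changes was not tested. FPKM holds no depth, so the precision of low genes such as CEBPD is unknown.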
